A study of Mus musculus with 6 samples.

Results

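The 10 genes described here encode chains of cytokine receptors used by CD8+ T cells, the T lymphocytes that kill infected and malignant cells. They were chosen by name, with earlier results of these data known. All 10 (Il2ra, Il2rb, Il2rg, Il7r, Il4ra, Il21r, Il12rb1, Il12rb2, Ifngr1 and Il18r1) were found among the 11175 genes of the deposited expression table. RNA was sequenced from wild-type mouse CD8+ T cells of the spleen that were activated in culture for 48 h with antibodies to CD3 and CD28, which engage the antigen receptor complex and a costimulatory receptor. The DOPAC group (3 libraries) received DOPAC, 3,4-dihydroxyphenylacetic acid, a breakdown product of dopamine, during activation, and the Control group (3 libraries) was activated in the same way without it. Neither the dose of DOPAC nor the age of the mice is stated in the labels. The labels also leave unstated whether replicates were separate mice or cultures, so each p-value reflects library-to-library spread that may be technical alone.

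Cytokine receptors are assembled from chains that are often shared. The IL-2 receptor of an activated T cell joins an alpha chain that raises affinity (Il2ra, also CD25) to a beta chain shared with IL-15 (Il2rb) and the common gamma chain (Il2rg), and the gamma chain also pairs with the private chains for IL-4, IL-7 and IL-21. The receptors for IL-2, IL-4, IL-7 and IL-21 lack enzyme activity of their own and signal through JAK kinases and STAT factors. In CD8+ T cells IL-2 drives growth and effector function, IL-7 sustains naive and memory cells, and IL-12, IL-18 and interferon-gamma act in effector differentiation.

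Values are FPKM, which scale reads by transcript length and library size, so levels of different genes can be set side by side. FPKM carry no read counts, so sequencing depth is unknown and counting error cannot be computed. FPKM summed to between 292755 and 316035 in DOPAC libraries and between 283818 and 310918 in Control libraries. Control replicate 1 stood apart: over the 10887 genes with a mean of at least 1 FPKM it accounted for 50.6% of the summed squared distance of libraries from their group mean, and its median over those genes was 6.42 FPKM, against 7.51 to 7.71 FPKM in the other 5 libraries. The difference of each receptor and the counts of each gene list are therefore also given without it. The labelled cell type was checked with 10 T cell and CD8 markers. All 10 were present, and their summed level was 1036 to 1147 FPKM in DOPAC libraries and 1102 to 1154 FPKM in Control libraries. Cd8a ranged from 178 to 192 FPKM with DOPAC and from 153 to 202 FPKM in Control.

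Among the 10 receptors, transcripts of the IL-12 receptor chain Il12rb2 and of the IL-7 receptor chain Il7r were about 2.07 and 1.92 times as high in DOPAC libraries as in Control libraries, on the log2(FPKM + 1) scale. Il2rb was also higher in every DOPAC library than in every Control library, by a smaller margin. The common gamma chain, the IL-4 receptor and the first IL-12 receptor chain differed little between the groups, and Il18r1 was the single member with a lower mean log2 value under DOPAC. None of these differences passed the threshold of the test over all genes. With limma's moderated test and Benjamini-Hochberg adjustment, 0 of the 10 members and 0 of 10887 genes had an adjusted p under 0.05 (0% of genes tested), and the members' adjusted p ran from 0.801 to 0.996. At an unadjusted p under 0.05 there were 2 members, Il7r and Il12rb2, both higher with DOPAC, where 2.73% of all genes tested were higher and 4.19% lay in either direction. Without Control replicate 1 the same 2 members had an unadjusted p under 0.05. In that fit 5.57% of all genes were higher with DOPAC at this level, and 1574 of 10887 genes reached it in either direction. There 2 genes that are no members passed the adjusted threshold (0.0184%). In the authors' deposited table no member and 0 of 11175 genes (0%) had an adjusted p under 0.05, while Il7r, Il12rb2 and 4.31% of all genes had an unadjusted p under 0.05. The 95% intervals of the members had a median half-width of 0.43 on the log2 scale. They are per gene and not adjusted for the 10887 genes tested. Larger differences, of 1.05 in Il12rb2 and 0.94 in Il7r, also fell short of the adjusted threshold.

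**Figure D1:**
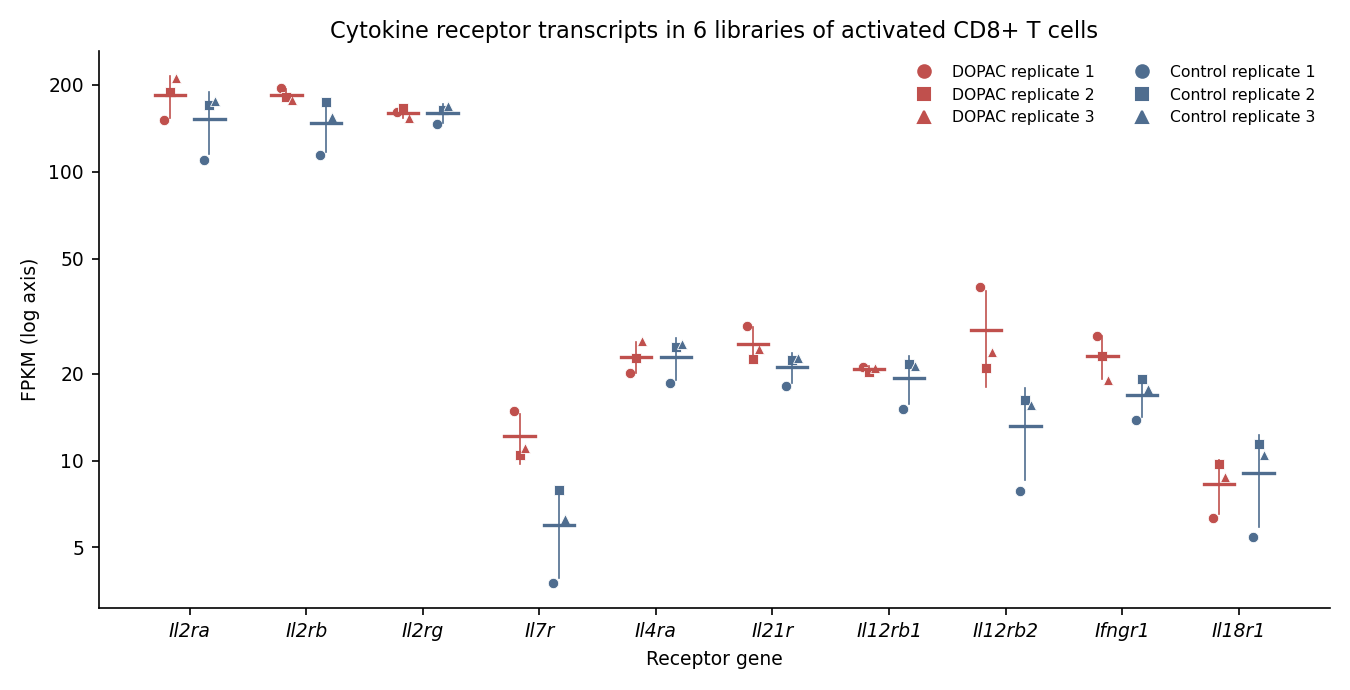
FPKM of the 10 receptor genes in each library (vertical log axis), DOPAC in red left of Control in blue. Symbols mark replicate numbers, horizontal bars the group mean and vertical bars 1 SD (n = 3 each). Il2ra, Il2rb and Il2rg form an upper tier above 100 FPKM in every library, and Control replicate 1 is the lowest library for all 10 genes.

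The receptors fell into tiers of level that both groups shared. The 3 chains of the IL-2 receptor were the most abundant members, each with a higher mean than about 97.8% to 97.9% of the listed genes. In DOPAC libraries their mean levels were 184 ± 30.3 FPKM for Il2ra, 185 ± 8.95 FPKM for Il2rb and 160.0 ± 5.97 FPKM for Il2rg (SD, n = 3 each). In Control libraries they were 152 ± 36.4, 148 ± 30.5 and 159.8 ± 12.1 FPKM for the same genes (SD, n = 3 each). Values of these 3 genes overlapped within each group, so their order among themselves is not resolved. Below them came a gap that no library bridged, and then Il4ra, Il21r, Il12rb1, Il12rb2 and Ifngr1, whose group means lay between 20.8 and 28.3 FPKM with DOPAC and between 13.2 and 22.8 FPKM in Control. Neighbours within this middle tier overlapped in both groups. In Control its lowest gene also overlapped Il18r1, whereas with DOPAC no value of the middle tier reached down to Il7r. In all 3 Control libraries the order was Il4ra, Il21r, Il12rb1, Ifngr1 and Il12rb2 from high to low, so Il12rb2 was the lowest of the 5. With DOPAC it ranked 4, 7 and 6 among the 10 genes in replicates 1, 2 and 3. Il7r and Il18r1 were lowest. Their order differed between the groups: Il7r was above Il18r1 in all 3 DOPAC libraries without overlap, at 12.1 ± 2.38 against 8.28 ± 1.74 FPKM, and below it in all 3 Control libraries with overlapping values, at 5.99 ± 2.08 against 9.09 ± 3.21 FPKM (SD, n = 3 each).

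Il7r encodes the alpha chain of the IL-7 receptor, which binds IL-7 and pairs with the common gamma chain. It lies on chromosome 15 at 9505788 to 9530176 on the minus strand (GRCm38, the build also called mm10). Its level was 14.8, 10.5 and 11.03 FPKM in DOPAC replicates 1 to 3, against 3.78, 7.90 and 6.28 FPKM in Control replicates 1 to 3. All 3 DOPAC libraries lay above all 3 Control libraries, and the lowest was Control replicate 1. On the log2 scale the difference was 0.94 (95% interval 0.33 to 1.55; limma adjusted p = 0.801). Without Control replicate 1 it was 0.69 (95% interval 0.28 to 1.10; limma adjusted p = 0.295), and the groups still did not overlap. Without DOPAC replicate 1 it was 0.80.

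Il12rb2 encodes the beta 2 chain of the IL-12 receptor, which carries the STAT4 docking site and is the inducible chain of this receptor. It lies on chromosome 6 at 67291318 to 67376188 on the minus strand. Il12rb2 measured 40.0, 20.9 and 23.9 FPKM in DOPAC replicates 1 to 3, against 7.86, 16.2 and 15.5 FPKM in Control replicates 1 to 3. The groups did not overlap, but the highest DOPAC and the lowest Control library were each far from the other 2 of their group. This gave a log2 fold change of 1.05, with a 95% interval of 0.24 to 1.85 and a limma adjusted p of 0.801. It was 0.74 without Control replicate 1 (95% interval 0.096 to 1.38; limma adjusted p = 0.319). Without DOPAC replicate 1 it was 0.78, and its 95% interval, with a lower end of -0.047, then included 0.

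The reads of Il12rb2 are uncertain because its exons overlap those of Serbp1, an RNA-binding protein gene on the opposite strand, and the library kit does not mark strand. In GENCODE M21 the genes share 1519 exon bases, which are 40.0% of the 3794 exon bases of Il12rb2 and 7.55% of the 20117 exon bases of Serbp1. Of the shared bases, 631 lie in the coding part of Il12rb2 and 888 outside it, and 0 lie in the coding part of Serbp1. Serbp1 measured 87.5, 49.9 and 51.1 FPKM in DOPAC replicates 1 to 3, against 59.9, 45.7 and 48.5 FPKM in Control replicates 1 to 3. Like Il12rb2 it was highest in DOPAC replicate 1, but in Control replicate 1, the library with the least Il12rb2, Serbp1 was above both other Control libraries. Serbp1 had a log2 fold change of 0.25 (limma adjusted p = 0.805), and of -0.015 without DOPAC replicate 1. Leaving out Control replicate 1 gave 0.36 for Serbp1 (limma adjusted p = 0.537). Its DOPAC values then all lay above both remaining Control values, as did those of 15.3% of all genes tested. Il12rb2 over Serbp1 gave a ratio of 0.457, 0.418 and 0.467 in the DOPAC libraries, against 0.131, 0.354 and 0.320 in the Control libraries, with no overlap. How far Serbp1 reads enter the Il12rb2 values was not tested.

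The windows around the transcription starts of the 2 members with the largest differences are shown to give their sequence context, each from 250 bases before to 50 bases after the start (RefSeq, GRCm38.p6, minus strand, read 5′ to 3′ along the gene). They were picked after the values were seen, and RefSeq windows were matched for 8 of the 10 members. The Il12rb2 window is chr6:67376139-67376438 and the Il7r window is chr15:9529827-9530126, and capitals mark every match, on either strand, to the letters searched.
Il12rb2: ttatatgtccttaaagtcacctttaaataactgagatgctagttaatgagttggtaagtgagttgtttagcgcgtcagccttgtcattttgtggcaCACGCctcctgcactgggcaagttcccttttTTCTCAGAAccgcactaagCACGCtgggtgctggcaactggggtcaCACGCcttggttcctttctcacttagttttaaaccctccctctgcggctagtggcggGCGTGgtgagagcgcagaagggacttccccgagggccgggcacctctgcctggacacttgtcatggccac
Il7r: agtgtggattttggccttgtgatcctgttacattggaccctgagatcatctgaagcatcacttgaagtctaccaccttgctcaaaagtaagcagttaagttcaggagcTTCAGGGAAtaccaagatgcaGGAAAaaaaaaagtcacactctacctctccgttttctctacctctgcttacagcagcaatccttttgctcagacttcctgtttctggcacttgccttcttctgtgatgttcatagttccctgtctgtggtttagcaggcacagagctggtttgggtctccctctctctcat
The letters searched were TTCNNNGAA (the STAT pattern), ACGTG and GCGTG (cores of the hypoxia response pattern), TGANTCA (AP-1) and GGAAA (NFAT), and no matches overlapped in these 2 windows. ACGTG and TGANTCA, found in 19.7% and 7.79% of all windows, had no match in either. TTCNNNGAA occurred at base -123 of the Il12rb2 window and at base -142 of the Il7r window, counted from the transcription start. It occurred in 8.33% of the 32544 distinct RefSeq windows of this length, and in 3 of the 10 windows of the 8 members matched, the third being a window of Il18r1. GCGTG occurred 4 times in the Il12rb2 window, at -154, -104, -77 and -20, and in 32.6% of all windows. The GGAAA match of Il7r, at -121, is of a kind found in 61.5% of all windows. A match of letters is a description and not a binding site.

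Of the chains of the IL-2 receptor, Il2rb had the clearest separation. Il2rb, the signalling beta chain, lies on chromosome 15 at 78479256 to 78495271 and measured 195, 182 and 178 FPKM in DOPAC replicates 1 to 3, against 115, 175 and 154 FPKM in Control replicates 1 to 3. All DOPAC values lay above all Control values, with 177.6 FPKM in the lowest DOPAC library and 174.7 FPKM in the highest Control library. Expressed as log2, DOPAC exceeded Control by 0.34 (95% interval -0.074 to 0.75; limma adjusted p = 0.801), and by 0.17 without Control replicate 1 (95% interval -0.043 to 0.38; limma adjusted p = 0.420). Il2ra, the alpha chain and a marker of activation, measured 152, 189 and 212 FPKM in DOPAC replicates 1 to 3, against 109.9, 169.6 and 176 FPKM in Control replicates 1 to 3. Its groups overlapped, since DOPAC replicate 1 was below 2 Control libraries. A log2 fold change of 0.29 resulted (95% interval -0.24 to 0.83; limma adjusted p = 0.801), or 0.078 without Control replicate 1. Il2ra lies on chromosome 2 at 11642807 to 11693193.

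Il2rg, the common gamma chain, was the steadiest member. It measured 161, 166 and 154 FPKM in DOPAC replicates 1 to 3, against 146, 164 and 169 FPKM in Control replicates 1 to 3. The groups overlapped throughout, with a log2 fold change of 0.0034 (95% interval -0.27 to 0.28; limma adjusted p = 0.996). That interval excludes differences beyond 0.28 in either direction under this model and does not show that the groups were equal. The value was -0.059 without Control replicate 1, with a 95% interval of -0.23 to 0.11. Il2rg lies on the X chromosome at 101264378 to 101268255, and 30.5% of its exon bases are shared with Gm20489, a gene model on the same strand that was not analysed here.

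The private chains for IL-4 and IL-21 stayed within overlapping ranges. Il4ra, the alpha chain for IL-4, measured 20.2, 22.6 and 25.9 FPKM in DOPAC replicates 1 to 3, against 18.5, 24.7 and 25.3 FPKM in Control replicates 1 to 3. Each group held a library near the top and a library near the bottom of the range. For Il4ra the fitted difference was 0.0099 on the log2 scale (95% interval -0.40 to 0.42; limma adjusted p = 0.992) and -0.13 without Control replicate 1. Il21r, the receptor chain for IL-21, measured 29.3, 22.4 and 24.3 FPKM with DOPAC, against 18.1, 22.3 and 22.7 FPKM in Control, with the groups meeting at DOPAC replicate 2. That of Il21r was 0.25 (95% interval -0.12 to 0.63; limma adjusted p = 0.801) and 0.16 without Control replicate 1. The genes are neighbours on chromosome 7, Il4ra at 125552120 to 125579474 and Il21r at 125603429 to 125633570. Of the Il4ra exon bases 9.51% are shared with Gm44876, an antisense gene model not analysed here.

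Il12rb1, the chain that IL-12 and IL-23 receptors share, varied least within the DOPAC group. It measured 21.1, 20.3 and 20.99 FPKM in DOPAC replicates 1 to 3, against 15.1, 21.7 and 21.3 FPKM in Control replicates 1 to 3. The log2 fold change of 0.12 (95% interval -0.28 to 0.51; limma adjusted p = 0.847) became -0.043 without Control replicate 1, when all DOPAC values lay below both remaining Control values. Il12rb1 lies on chromosome 8 at 70808449 to 70821424.

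Ifngr1, the ligand-binding chain of the interferon-gamma receptor, had the third largest log2 fold change. It measured 26.9, 23.1 and 19.1 FPKM in DOPAC replicates 1 to 3, against 13.8, 19.2 and 17.8 FPKM in Control replicates 1 to 3. The groups overlapped only where DOPAC replicate 3 and Control replicate 2 met, at 19.06 and 19.18 FPKM. Its difference on the log2 scale was 0.42 (95% interval -0.016 to 0.86; limma adjusted p = 0.801) and 0.29 without Control replicate 1 (95% interval -0.060 to 0.64). Ifngr1 lies on chromosome 10 at 19591949 to 19610229. The signalling chain Ifngr2 was near the low end of the table, with a mean of 1.198 ± 0.24 FPKM with DOPAC and 0.909 ± 0.23 FPKM in Control (SD, n = 3 each).

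Il18r1, the ligand-binding chain of the IL-18 receptor, measured 6.34, 9.71 and 8.78 FPKM in DOPAC replicates 1 to 3, against 5.42, 11.4 and 10.4 FPKM in Control replicates 1 to 3. Replicate 1 was the lowest library of both groups. Over all libraries the fitted value for Il18r1 was -0.081 on the log2 scale (95% interval -0.76 to 0.60; limma adjusted p = 0.939). Without Control replicate 1 it was -0.38 (95% interval -0.79 to 0.030; limma adjusted p = 0.366), and all 3 DOPAC values then lay below both Control values. Its partner chain Il18rap, measured at 5.17, 8.17 and 7.09 FPKM with DOPAC and 3.86, 8.40 and 7.74 FPKM in Control, was again lowest in replicate 1 of each group. Il18r1 lies on chromosome 1 at 40465552 to 40500854.

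**Figure D2:**
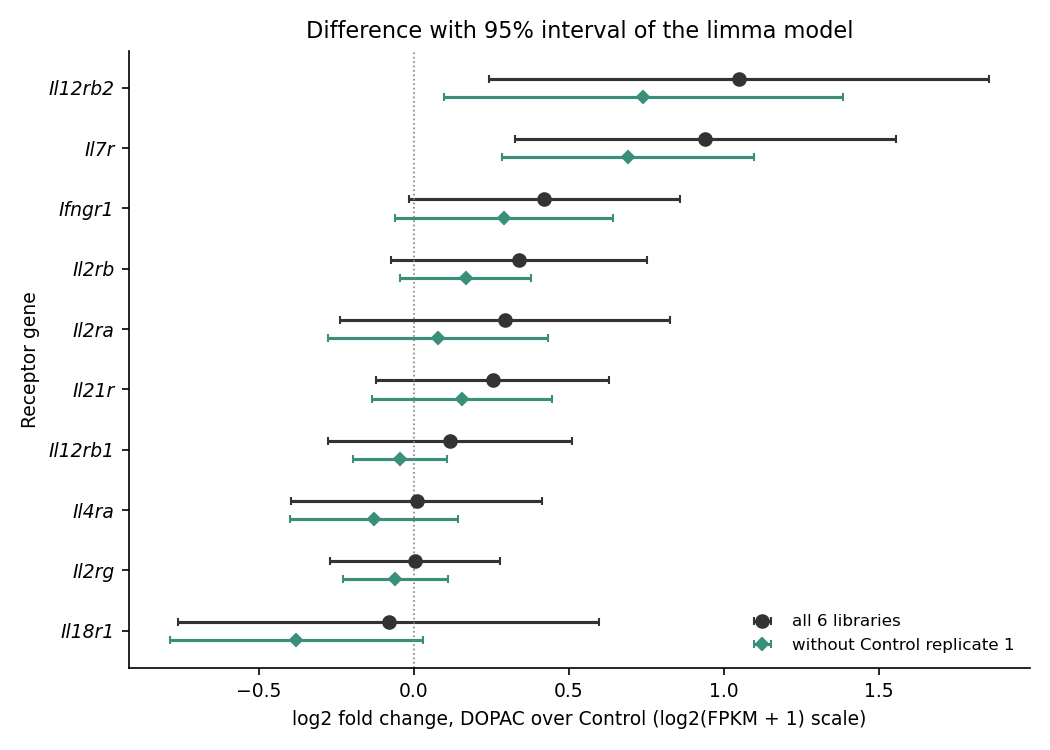
Difference between DOPAC and Control for each receptor on the log2(FPKM + 1) scale, with the 95% interval of the limma model, from all 6 libraries (circles) and without Control replicate 1 (diamonds). Intervals of Il12rb2 and Il7r lie above 0 in both fits, those of the other 8 genes include 0, and 4 genes have negative values without Control replicate 1.

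Over the 10 genes, 9 had a positive log2 fold change, where 62.1% of all genes tested did, and the median was 0.27 against 0.066 over all genes. Without Control replicate 1 these became 6 of 10 members against 47.3% of all genes, and a median of 0.12 against -0.011. Groups did not overlap in 3 members (Il12rb2, Il7r and Il2rb), all higher with DOPAC, beside 12.4% of all genes, and 0 members lay wholly lower, beside 4.8%. Without Control replicate 1 the same 3 members lay wholly above, beside 15.3% of all genes, and 2 (Il12rb1 and Il18r1) lay wholly below, beside 21.5% of all genes. All 10 members were lowest in Control replicate 1, which was the lowest library for 58.6% of all genes. DOPAC replicate 1 was the highest library for 5 members (Il12rb2, Il7r, Ifngr1, Il2rb and Il21r), against 19.4% of all genes, yet within the DOPAC group it was the lowest for Il2ra, Il4ra and Il18r1. The members therefore did not vary as a block within the DOPAC group: on the log2 scale DOPAC replicate 1 stood 0.82 above the mean of the other 2 DOPAC libraries in Il12rb2 and 0.43 above it in Il7r, and 0.48 and 0.40 below it in Il18r1 and Il2ra. Control replicate 1 lay below the mean of the other 2 Control libraries by unequal amounts, with differences of -0.93 in Il12rb2, -0.89 in Il18r1 and -0.19 in Il2rg.

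**Figure D3:**
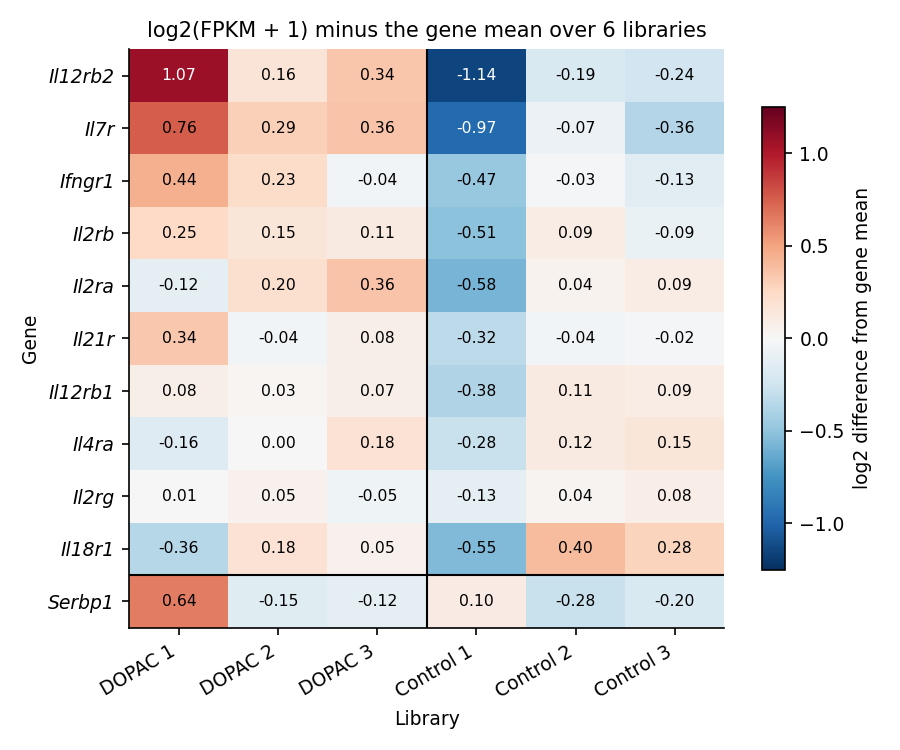
log2(FPKM + 1) of each receptor and of Serbp1 minus the gene's mean over the 6 libraries, with DOPAC libraries left of Control libraries and receptors ordered by log2 fold change. Every receptor is below its mean in Control replicate 1, DOPAC replicate 1 is high for Il12rb2 and Il7r and low for Il18r1, and Serbp1 is high in DOPAC replicate 1 but not low in Control replicate 1.

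Ratios of chains within a library remove any factor that scales both genes alike. The 10 ratios computed include Il12rb2 over Serbp1, which is no pair of receptor chains. Of the 10, 5 separated the groups completely, Il12rb2 over Serbp1 among them. No test was run on them because an exact permutation test of 3 against 3 libraries cannot go below 0.1. Those higher with DOPAC have Il12rb2, Il7r or Il2rb as numerator, the members whose own groups did not overlap. They are therefore not separate evidence, and the share of separated ratios over other gene pairs was not computed. Il12rb2 over its partner Il12rb1 was 1.898, 1.03 and 1.14 in DOPAC replicates 1 to 3, against 0.520, 0.748 and 0.730 in Control replicates 1 to 3. The DOPAC libraries thus held at least as many length-scaled reads counted for Il12rb2 as for Il12rb1, and the Control libraries held fewer. Because 40.0% of the Il12rb2 exon bases are shared with Serbp1, some of these reads may come from Serbp1, which was not tested. Il7r over Il2rg averaged 0.0759 ± 0.0150 with DOPAC and 0.0371 ± 0.0112 in Control (SD, n = 3 each). Il2rb over Il2rg averaged 1.16 ± 0.058 with DOPAC and 0.921 ± 0.14 in Control (SD, n = 3 each), while Il2ra over Il2rg, at 1.15 ± 0.22 with DOPAC and 0.941 ± 0.16 in Control, overlapped. Il18r1 over Il18rap ran the other way with a narrow spread: it was 1.23, 1.19 and 1.24 in the DOPAC libraries, against 1.40, 1.36 and 1.35 in the Control libraries. This was the only one of the ratios in which all DOPAC libraries lay below all Control libraries. The ratios of Il4ra and Il21r over Il2rg, Ifngr1 over Ifngr2 and Il2ra over Il2rb overlapped between the groups.

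**Figure D4:**
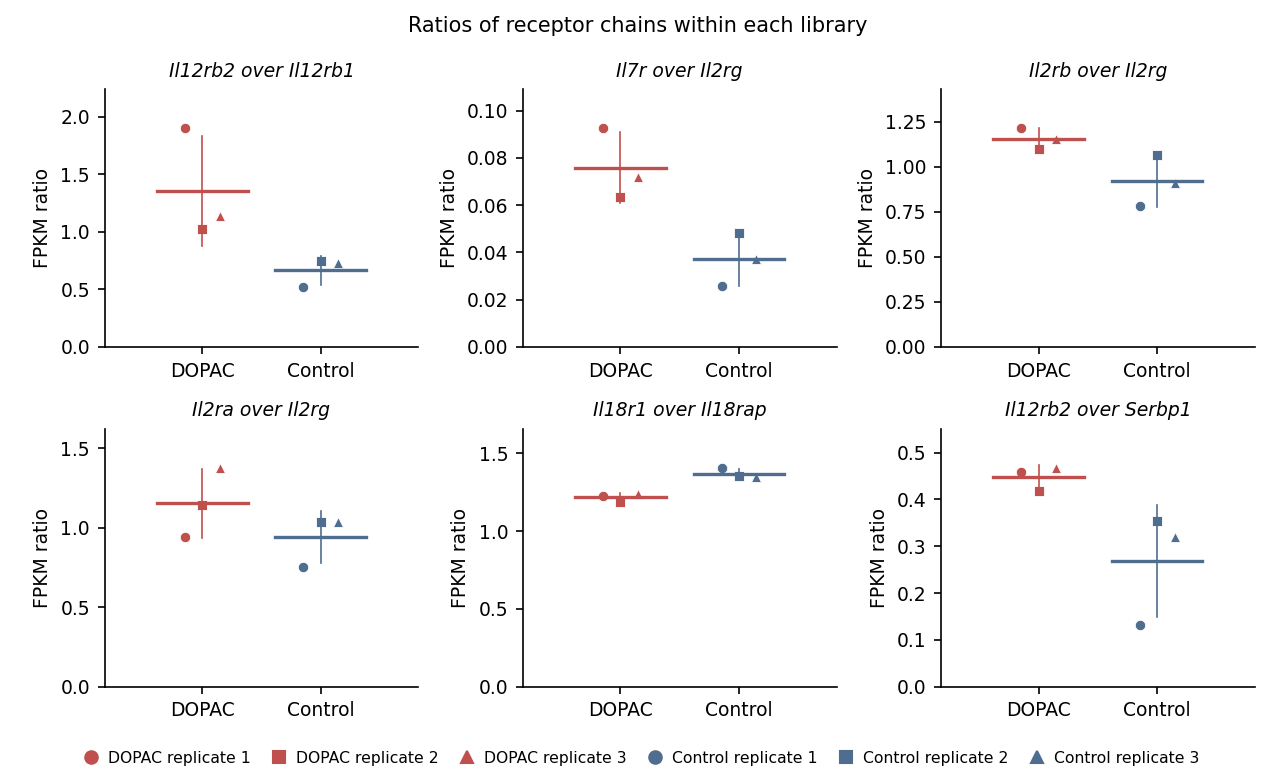
FPKM of a receptor chain divided by that of its partner chain, or by Serbp1, in each library, DOPAC left of Control. Bars are the group mean and 1 SD (n = 3 each), and axes start at 0. Il2ra over Il2rg overlaps between the groups, the other 5 ratios do not, and Il18r1 over Il18rap is lower in all DOPAC libraries.

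The genes whose values followed each receptor most closely were taken as the 2 with the smallest root mean square difference over the 6 libraries, after centring on each gene's mean log2(FPKM + 1). For Il7r, whose own spread was 0.56, they were Bhlhe40, a transcription factor gene (difference 0.056), and Gbe1, the glycogen branching enzyme gene (0.091). Bhlhe40 measured 81.9, 62.6 and 69.4 FPKM in DOPAC replicates 1 to 3, against 24.5, 47.7 and 40.7 FPKM in Control replicates 1 to 3. For Il12rb2, with a spread of 0.67, they were Trim30a (0.15) and Il7r itself (0.17). Trim30a measured 23.1, 11.6 and 11.9 FPKM with DOPAC, against 5.01, 10.9 and 10.1 FPKM in Control. The nearest to Il2ra were Elovl6 and Ighj3, to Il2rb Ncoa4-ps and mt-Co1, to Ifngr1 Ccdc181 and Haao, and to Il18r1 Tmc8 and Npas4. For the flatter members they were Xndc1 and Anapc7 (Il2rg), Ankrd39 and Arv1 (Il4ra), Pfkfb1 and Lif (Il21r), and Xpc and Kat7 (Il12rb1). With 6 libraries and 10887 genes, close neighbours exist for almost any pattern, so these names describe likeness in these libraries only.

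Ligands, signalling genes and response genes of these receptors were listed by textbook role. Of 121 such genes 98 were tested and 0 passed in either direction. At an unadjusted limma p under 0.05 there were 5 of the 98, where 4.19% of all genes tested lay in either direction. These were Ifng, Stat4, Il10ra, Prf1 and Fos, each with a limma adjusted p of 0.801. Intervals printed below for them are not adjusted for the number of genes. Positive log2 fold changes were found for 70 of the 98, with a median of 0.10, beside 62.1% of all genes tested. They were found for 36 of the 98 without Control replicate 1, with a median of -0.063, beside 47.3% of all genes. Among ligands 2 of 12 were tested. Ifng, the interferon-gamma gene, measured 188, 98.8 and 132 FPKM in DOPAC replicates 1 to 3, against 78.6, 80.1 and 82.9 FPKM in Control replicates 1 to 3, and all DOPAC values were higher (log2 fold change 0.74, 95% interval 0.19 to 1.29). Leaving out DOPAC replicate 1 gave 0.50 for Ifng, and leaving out Control replicate 1 gave 0.72. The Il2 gene was at 1.38 to 4.07 FPKM with DOPAC and 2.40 to 4.55 FPKM in Control, and overlapped. Its log2 fold change was -0.42, and leaving out DOPAC replicate 1 gave -0.18, against -0.27 when Control replicate 1 was left out. In each case 1 of the 2 ligand genes was positive.

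JAK kinases and STAT factors were all tested (11 of 11) and 10 had positive values, with a median of 0.23, but only 4 were positive without Control replicate 1, with a median of -0.077. Stat4, the factor that IL-12 activates, measured 55.3, 40.0 and 40.7 FPKM with DOPAC, against 23.1, 35.7 and 34.1 FPKM in Control, so the groups did not overlap. Its log2 fold change was 0.55 (95% interval 0.032 to 1.06), or 0.35 without Control replicate 1 (95% interval -0.014 to 0.72). Without DOPAC replicate 1 it was 0.40, with a 95% interval of -0.17 to 0.96. Stat3 and Stat2 had log2 fold changes of 0.45 and 0.33, with overlapping groups, and of 0.23 and 0.15 without Control replicate 1. They had 0.34 and 0.18 without DOPAC replicate 1. Other cytokine receptors (15 of 23 tested, 10 positive, median 0.046) were led by Il10ra, the IL-10 receptor chain, at 9.63, 6.90 and 7.72 FPKM with DOPAC, against 3.60, 5.96 and 5.74 FPKM in Control. Its log2 fold change was 0.59 (95% interval 0.089 to 1.09), or 0.47 without DOPAC replicate 1 (95% interval -0.12 to 1.05). Il15ra and Ifngr2 had 0.197 and 0.204, and had 0.10 and 0.12 without DOPAC replicate 1. Of these 15 receptors 4 were positive without Control replicate 1, with a median of -0.14, and Il10ra, Il15ra and Ifngr2 had 0.40, 0.13 and 0.28.

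Negative feedback genes (16 of 16 tested, 11 positive, median 0.061) gave values in both directions: the phosphatase gene Ptpn2 had a log2 fold change of 0.24, the phosphatase gene Ptpn1 -0.18 and Socs4 0.33. Only 5 of the 16 were positive without Control replicate 1, with a median of -0.062, and these genes had 0.17, -0.22 and 0.029. IL-18 receptor adaptors (8 of 9 tested, 5 positive, median 0.10) had Traf6 at 0.39, Map3k7 at 0.20 and Irak2 at 0.11. Leaving out Control replicate 1 gave 2 of 8 positive adaptors, a median of -0.12, and 0.12, -0.074 and 0.014 for these genes. IL-2 and STAT5 response genes (15 of 16 tested, 9 positive, median 0.044) were led by the perforin gene Prf1, at 24.9, 16.8 and 18.8 FPKM with DOPAC, against 12.3, 13.9 and 13.5 FPKM in Control (log2 fold change 0.56, 95% interval 0.15 to 0.96). The granzyme gene Gzmb and the survival gene Bcl2 had 0.55 and 0.47, with overlapping groups. With Control replicate 1 left out, 5 of the 15 were positive, with a median of -0.027, Prf1 was at 0.51, Gzmb at 0.66 and Bcl2 at 0.14. Prf1 was at 0.40 (95% interval 0.023 to 0.78) and Gzmb at 0.30 without DOPAC replicate 1. IL-12 and STAT4 response genes (7 of 8 tested, 6 positive, median 0.079) shared Ifng and Gzmb with these lists, and the third was the death ligand gene Fasl at 0.54. In the fit without Control replicate 1, 4 of the 7 were positive, with a median of 0.080, and Fasl was at 0.43. Fasl was at 0.22 without DOPAC replicate 1. Interferon-gamma response genes (17 of 18 tested, 13 positive, median 0.19) had the GTPase gene Gbp7 at 0.79, Irgm1 at 0.40 and Cd274, the PD-L1 gene, at 0.33. Of these 17, 9 were positive without Control replicate 1, with a median of 0.0055, and Gbp7, Irgm1 and Cd274 were at 0.35, 0.26 and 0.096. Irgm1 was at 0.19 without DOPAC replicate 1. Among factors known to control Il7r or Il2ra (16 of 17 tested, 12 positive, median 0.11), the AP-1 gene Fos was lower in every DOPAC library, at 1.11, 2.19 and 2.55 FPKM, against 3.29, 3.48 and 3.39 FPKM in Control (log2 fold change -0.61, 95% interval -1.10 to -0.11). Gabpa, an ETS factor known to act on Il7r, had 0.41, and Klf2 had -0.45. When Control replicate 1 was omitted, 6 of these 16 were positive, with a median of -0.15, and Fos, Gabpa and Klf2 had -0.62, 0.10 and -0.46. Without DOPAC replicate 1, Fos had -0.38 and Klf2 -0.75.

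Summed transcripts of the macrophage and fibroblast markers listed were lower in every DOPAC library than in every Control library. Of all single genes tested, 4.8% lay wholly lower with DOPAC. Of 12 macrophage markers 3 were listed (Lyz2, Cd68 and C1qb), with a summed level of 4.77 to 13.0 FPKM in DOPAC libraries and 15.4 to 35.2 FPKM in Control libraries. Most of this sum was Lyz2, at 2.57 to 10.4 FPKM with DOPAC and 11.2 to 30.2 FPKM in Control. Of 6 fibroblast markers 3 were listed, all collagens, and summed to 0.330 to 16.0 FPKM with DOPAC and 25.7 to 27.9 FPKM in Control. The low end was DOPAC replicate 1 alone, since DOPAC replicates 2 and 3 summed to 15.5 and 16.0 FPKM. Of 7 erythroid markers 2 were listed, at a sum of 0.280 to 3.02 FPKM with DOPAC and 2.72 to 10.4 FPKM in Control. The lists for B cells (2 of 7 listed), NK cells (1 of 6) and CD4 T cells (1 of 5) had overlapping sums, and 0 markers of dendritic cells, neutrophils and mast cells were listed. The B cell sum was larger, at 127 to 155 FPKM with DOPAC and 145 to 156 FPKM in Control. Most of it was Ighm, at 126 to 154 and 143 to 154 FPKM. From the NK cell list only Nkg7 was present, at 127 to 141 FPKM with DOPAC and 137 to 172 FPKM in Control. Ncr1, Klrb1c, Klra8, Klra4 and Klre1 were not listed, so Nkg7 alone does not show NK cells. In bulk RNA fewer cells of a type and less RNA per cell cannot be told apart. The part of these transcripts in the receptor values, several of which macrophages also express, was not tested.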

How the data were processed

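RNA was measured in 3 DOPAC and 3 Control libraries made, per the labels' protocols, with TRIzol, SMART-Seq HT and Nextera XT reagents that leave strand unmarked. Cutadapt 1.9 and HISAT2 2.2.1 with the mm10 build are named in the submitters' processing notes. The authors deposited FPKM values for 11175 genes, per the file headers, and how these were estimated and filtered is not given in the sources used here. The deposited log2 fold change equalled the difference of mean log2(FPKM + 1) in every row (within 1e-05), and the deposited p-values come from a test the headers do not name. Library names gave groups and replicate numbers.

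Genes with a mean of at least 1 FPKM over all 6 libraries (10887, all 10 members among them) were compared as log2(FPKM + 1), which understates changes of low genes. R 4.3.3 with limma 3.58.1 fitted DOPAC against Control with a mean-variance trend, and Benjamini-Hochberg adjustment ran over all 10887 genes, with adjusted p under 0.05 as the threshold. The test was tested on simulated data. For each gene these had independent noise of equal spread in all 6 libraries. An outlying library such as Control replicate 1 was therefore not simulated. Positions and exons came from GENCODE M21, start windows from RefSeq. Besides the members, their partner chains and Serbp1, the genes named were the 3 with the smallest p from each of 9 lists by role and the 2 nearest in pattern to each member, predicted genes left out. The members and lists were chosen with earlier results of these data known. Figures used Python 3.11.15 and matplotlib 3.10.9.

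Replicate numbers are shared by the groups. Deviations from the group means of same-numbered libraries correlated across genes at 0.34, 0.16 and 0.28, each above 0.1, so the numbers were taken as pairs in an alternative fit with a replicate block. The deviations of a group cancel out for each gene, so these correlations are tied to one another and are not separate support for pairs. DOPAC replicate 3 with Control replicate 2 gave 0.24 and DOPAC replicate 2 with Control replicate 3 gave 0.19, both above 0.16. The pairing is therefore not settled by these values, and no label says what the pairs share. The other alternatives were other pseudocounts (0.1 and 0.5), other filters (5 FPKM, or none), quantile normalization, libraries set to equal medians, a robust variance model, each library left out and, chosen after seeing the data, the block without Control replicate 1.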

Additional observations from a re-analysis of the deposited data

How the results depend on the processing

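Under all 15 alternatives 0 of the 10 members passed the threshold, and with the replicate block 0 genes and 0 members passed. Over all genes the count past the threshold was between 0 and 2 when each library was left out, with 2 genes without Control replicate 1, neither a member. The number of members with a positive log2 fold change lay between 6 and 10 in the leave-one-out fits. Il7r, Il12rb2, Ifngr1, Il2rb, Il2ra and Il21r kept a positive log2 fold change in every alternative, with ranges of 0.55 to 1.14, 0.47 to 1.23, 0.18 to 0.54, 0.13 to 0.47, 0.078 to 0.43 and 0.049 to 0.34 in that order, the lower end in a fit without Control replicate 1 in each. The 4 members near 0 changed sign in some alternatives, and the cause was not tested. Il2rg was -0.055 with equal medians and -0.062 with the block without Control replicate 1, and ranged from -0.059 to 0.047 with a library left out. Il4ra was -0.039 with quantile normalization, -0.049 with equal medians and -0.044 with the block without Control replicate 1, and ranged from -0.13 to 0.094 with a library left out. Il12rb1 was -0.053 with the block without Control replicate 1 and ranged from -0.043 to 0.20, and Il18r1 ranged from -0.38 to 0.096. Among other named genes, Serbp1 ranged from -0.015 to 0.38, Il18rap from -0.24 to 0.24 (-0.074 with the block without Control replicate 1), Map3k7 from -0.074 to 0.35, and Stat2 and Irak2 were -0.0015 and -0.0019 with that block. With no read counts, depth limits cannot be given.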
